A study of Mus musculus with 23 samples.

Results

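The comparison described here set mice that received both alcohol and urolithin A (EtOH-UA, 7 mice) against mice on the control diet (Ctrl, 9 mice), by RNA sequencing of the hippocampus. These 16 of the 23 mice of the series were taken by the group in their column names, and the 7 mice given alcohol alone were left out. Of 19733 genes in the table, the 12869 with a mean of at least 1 FPKM (fragments mapped to a gene, divided by transcript length and library size) over the 16 mice were compared on the scale log2(FPKM + 0.1). All mice were wild-type C57BL/6J males, 6 weeks old when acquired. EtOH-UA mice drank an ethanol liquid diet and were gavaged daily with urolithin A suspended in CMC-Na, whereas Ctrl mice had the AIN93M control liquid diet and CMC-Na alone. Treatment lasted 16 weeks and was followed by behavioral testing before tissue was taken. The EtOH-UA mice differed from the Ctrl mice in both alcohol and urolithin A, so the effects of these agents cannot be told apart here. The annotations do not say which mice shared a cage or a batch.

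Urolithin A is made by gut bacteria from ellagic acid, a plant polyphenol, and is best known for inducing mitophagy, the removal of damaged mitochondria. Ethanol is oxidized to acetaldehyde and then to acetate, and in the brain it acts on GABA-A and NMDA receptors and, with long exposure, on glia and synapses. The hippocampus holds the CA1, CA2, CA3 and dentate gyrus neurons of memory circuits, and it borders the choroid plexus, which makes the cerebrospinal fluid, and the ependyma, which lines the ventricles. All 22 markers of the hippocampal subfields passed the FPKM filter.

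No gene differed between the groups at an adjusted p under 0.05 with limma, where 0 of 12869 genes (0%) passed. The adjusted p values began at 0.9996. Without adjustment, limma placed 264 genes (2.05%) under 0.05, of which 143 (1.11%) were higher and 121 (0.94%) were lower in EtOH-UA mice. Where no gene differs, about 1 in 20 genes fall under 0.05 by chance, and the 2.05% found here was below that share. That chance share also applies to the gene lists described further on. The median difference over all genes was 0.00 on the log2 scale, and 51.7% of genes had a higher mean in EtOH-UA mice. The groups overlapped in every gene but Nectin4, which was 1 of 12869 genes (0.00777%). The 95% interval of the difference had a median half-width of 0.177 on the log2 scale. For 12043 genes (93.6%) that interval lay within 0.5 of 0 in both directions, and for 12728 genes (98.9%) it lay within 1. Intervals were wider at low abundance, and the share of genes with an interval inside 0.5 was 98.7% at 20 FPKM or more, 97.1% from 5 to 20 FPKM and 82.0% from 1 to 5 FPKM.

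The FPKM of all genes summed to between 330456 and 361354 in Ctrl mice and to between 333801 and 338434 in 5 EtOH-UA mice, and to 379518 and 404609 in the other two. Without these 2 EtOH-UA mice the number of genes at an unadjusted p under 0.05 was 388 higher and 462 lower, and still 0 passed the adjusted threshold. Of the 264 genes, 123 (46.6%) were again under 0.05 in the same direction without them, and these made up 14.5% of the 850 genes under 0.05 there. Depth was read from the smallest steps between low FPKM values, which gave a median of 17.1 fragments per kilobase at 1 FPKM over 40 genes.

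**Figure D1:**
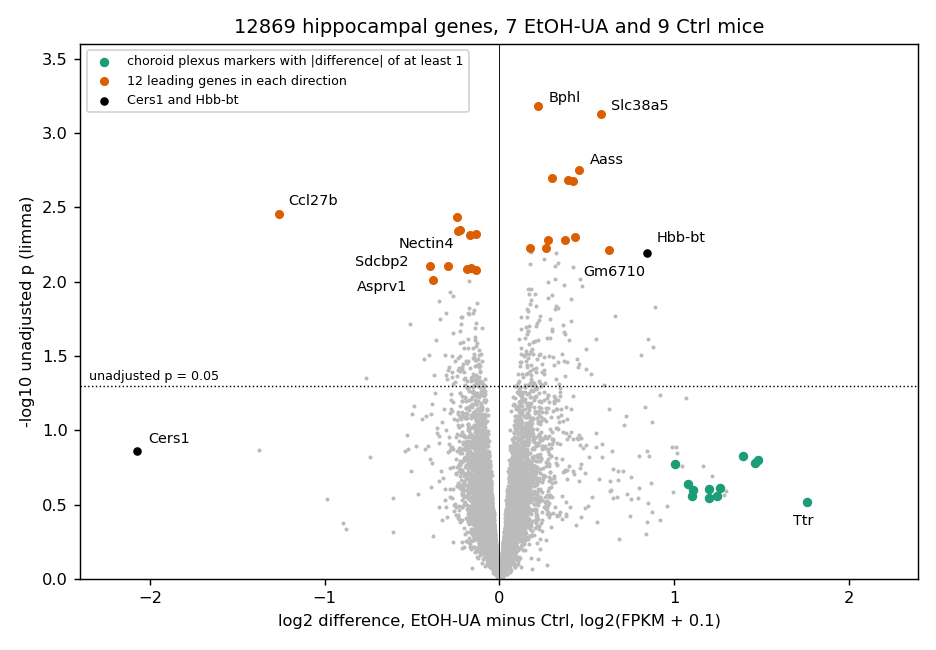
Each point is 1 of 12869 genes, placed by its log2 difference between EtOH-UA and Ctrl mice (horizontal axis) and by the unadjusted limma p on a -log10 scale (vertical axis), with the 12 genes of smallest p in each direction in orange and choroid plexus markers with an absolute difference of at least 1 in green, and with Cers1 and Hbb-bt in black. The smallest p values, at Bphl and Slc38a5, belonged to differences of 0.22 and 0.58. The larger differences at Cers1 and Ttr had exact permutation p values of 0.189 and 0.342.

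The 12 genes with the smallest p among those higher in EtOH-UA mice held several enzymes and a transporter of amino acids. None passed the adjusted threshold, so they are described by their values. The exact permutation p values given for them use the same mice that chose the genes. These p values are small by selection and add no separate support. Bphl encodes a mitochondrial serine hydrolase and lies on chromosome 13 (34037585-34074074, GRCm38). It was at 13.99 to 18.38 FPKM in EtOH-UA mice (median 16.56) and at 13.31 to 14.84 FPKM in Ctrl mice (median 13.97). In 6 of 7 EtOH-UA mice it was above every Ctrl mouse. The difference was 0.22 on the log2 scale (95% interval 0.11 to 0.33), or 1.17-fold, with p = 0.000874 by an exact permutation test.

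Slc38a5, a glutamine and glycine transporter on chromosome X (8271381-8280179), was at 1.19 to 1.97 FPKM in EtOH-UA mice (median 1.64) and at 0.73 to 1.69 FPKM in Ctrl mice (median 0.98). All 7 EtOH-UA mice were above the Ctrl median, and 1 Ctrl mouse lay among them. The difference was 1.49-fold (exact permutation p = 0.0021). Aass, which starts the breakdown of lysine, was at 1.55 to 2.95 FPKM (median 1.86) against 1.05 to 1.64 FPKM (median 1.40). Here 6 of 7 EtOH-UA mice were above every Ctrl mouse, and the difference of 0.46 had an exact permutation p of 0.000612.

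Tgm2, a transglutaminase that crosslinks proteins, was at 3.17 to 5.0 FPKM in EtOH-UA mice (median 3.96) and at 2.10 to 4.11 FPKM in Ctrl mice (median 3.02). Sult1a1, a sulfotransferase of phenols, was at 7.83 to 15.4 FPKM (median 9.62) against 5.40 to 9.63 FPKM (median 7.07). In both genes all 7 EtOH-UA mice were above the Ctrl median and the ranges overlapped. Fkbp7, a chaperone of the endoplasmic reticulum, was above every Ctrl mouse in 6 EtOH-UA mice, and Cln3, a lysosomal membrane protein, was so in 5. Their differences were 1.23-fold and 1.13-fold. The others were 1700088E04Rik, Serinc2, Etfbkmt (a methyltransferase of an electron transfer flavoprotein), Ift43 (a part of the intraflagellar transport machinery of cilia) and Gm6710, at 1.31-fold, 1.30-fold, 1.21-fold, 1.20-fold and 1.54-fold.

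The 12 leading genes in the other direction included a potassium channel, a chromatin regulator and an adhesion molecule. Their exact permutation p values also come from the values that chose the genes and add no separate support. Nectin4, an adhesion molecule on chromosome 1 (171370173-171388287), was at 2.06 to 2.28 FPKM in EtOH-UA mice (median 2.18) and at 2.32 to 2.81 FPKM in Ctrl mice (median 2.46). Every EtOH-UA mouse was below every Ctrl mouse, and the nearest of them were at 2.28 and 2.32 FPKM. The difference was -0.19 on the log2 scale (95% interval -0.32 to -0.05), with an exact permutation p of 0.000437, for which the smallest possible value was 8.74e-05.

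Kcnq5, a subunit of the M-type potassium channel that restrains neuronal firing, was at 14.58 to 17.2 FPKM in EtOH-UA mice (median 14.87) and at 15.11 to 21.55 FPKM in Ctrl mice (median 18.54). Setdb1, a histone methyltransferase of silent chromatin, was at 12.11 to 14.11 FPKM (median 12.86) against 13.16 to 14.93 FPKM (median 14.61). In both genes 4 of 7 EtOH-UA mice were below every Ctrl mouse and the other three lay within the Ctrl range. The differences were -0.24 and -0.13 on the log2 scale, with exact permutation p = 0.00804 and 0.00385. Dpysl3, a protein of growing axons, was at 9.64 to 12.53 FPKM (median 10.78) against 11.51 to 13.49 FPKM (median 12.19), and 6 EtOH-UA mice were below every Ctrl mouse. Pcyt1b, an enzyme of phosphatidylcholine synthesis, differed by -0.13 on the log2 scale and was below every Ctrl mouse in 4 EtOH-UA mice.

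Syt6, a synaptotagmin, differed by -0.29 on the log2 scale, Rufy2, an endosomal protein, by -0.16, and Sdcbp2 (syntenin-2) by -0.39. Gm52448, Lenep and Asprv1 differed by -0.25, -0.23 and -0.38, and Ccl27b, a chemokine described further with its near-identical copies, by -1.26. All 24 leading genes kept their direction among the 4 EtOH-UA and 3 Ctrl mice with neighbouring mouse numbers, where 5 had an unadjusted p under 0.05. Those mice are part of the data that chose the genes.

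**Figure D2:**
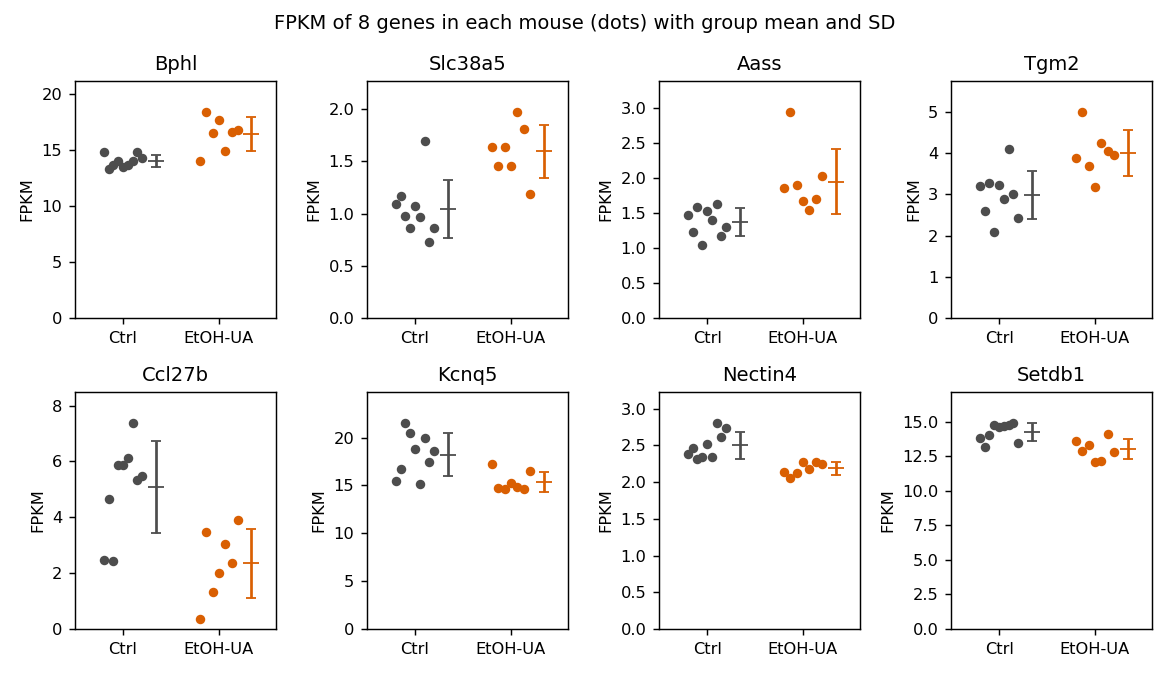
FPKM (vertical axis, from 0) of 8 genes in each Ctrl mouse (grey dots) and EtOH-UA mouse (orange dots), with the group mean and SD beside them. The upper 4 genes had higher means and the lower 4 had lower means in EtOH-UA mice, and only for Nectin4 did the groups not overlap.

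Genes of synaptic plasticity, microglia and cytokines were followed in the study by other assays. In this list 11 of 14 genes passed the FPKM filter. None had an unadjusted p under 0.05, 6 were higher and 5 lower in EtOH-UA mice, and the median difference was 0.03 against 0.00 over all genes. Bdnf, a neurotrophin of activity-dependent plasticity, was the widest apart, at 10.49 to 16.75 FPKM in EtOH-UA mice (median 11.72) and at 8.37 to 13.2 FPKM in Ctrl mice (median 10.46). All 7 EtOH-UA mice were above the Ctrl median and most lay within the Ctrl range. The difference was 0.20 on the log2 scale, with a 95% interval of -0.02 to 0.43 and an exact permutation p of 0.0986.

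Dlg4, which encodes the postsynaptic scaffold PSD-95, was at 167.43 to 221.14 FPKM in EtOH-UA mice (median 199.42) and at 193.61 to 220.35 FPKM in Ctrl mice (median 205.55). The ranges overlapped almost wholly, apart from 2 low EtOH-UA mice. The 95% interval of the difference, -0.15 to 0.09, was among the narrower ones, as was that of App, the amyloid precursor, at -0.14 to 0.07. Intervals of -0.34 to 0.23 for the NMDA receptor subunit Grin2b and of -0.27 to 0.15 for the AMPA receptor subunit Gria2 left room for larger differences. Fxr1 and Fxr2, RNA-binding relatives of the fragile X protein, had differences of 0.06 and 0.03, and Tdp2, a DNA repair enzyme, one of 0.07. Differences of -0.06 and 0.08 were found for the microglial gene Aif1 (Iba1) and the immune adaptor gene Fyb, with intervals reaching from -0.42 to 0.30 and from -0.16 to 0.33. The directions of Fxr2, Dlg4, Grin2b, Gria2 and Aif1 turned when single mice were left out. The cytokine genes Il1b, Tnf and Il10 had means below 1 FPKM and were not compared.

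The receptor and RAP1 genes had differences on both sides of 0, and every interval crossed 0. Cnr1, the CB1 cannabinoid receptor, was at 30.12 to 52.64 FPKM in EtOH-UA mice (median 42.31) and at 39.74 to 58.49 FPKM in Ctrl mice (median 43.64), with 6 of 7 EtOH-UA mice inside the Ctrl range. Its difference was -0.11 on the log2 scale (95% interval -0.32 to 0.11). Drd2, the dopamine D2 receptor, was at 0.53 to 0.83 FPKM in EtOH-UA mice (median 0.68) and at 0.51 to 0.97 FPKM in Ctrl mice (median 0.69), so that every EtOH-UA mouse lay within the Ctrl range. Its mean was below 1 FPKM, and in a fit with a filter at 0.1 FPKM its difference was 0.04 (95% interval -0.22 to 0.30). In that fit the adenosine receptor gene Adora2a differed by -0.21 (interval -0.48 to 0.07) and the lysophosphatidic acid receptor gene Lpar3 by -0.37 (interval -0.86 to 0.13). Rap1b, a small GTPase, differed by 0.13 (interval -0.02 to 0.27, exact permutation p = 0.0858), and its relative Rap1a by 0.03. Of the wider list of dopamine and adenosine receptors and RAP1 genes, 7 of 21 tested members were higher, the median was -0.02, and 0 had an unadjusted limma p under 0.05. Without the 2 EtOH-UA mice of highest summed FPKM 12 of the 21 were higher (median 0.01).

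**Figure D3:**
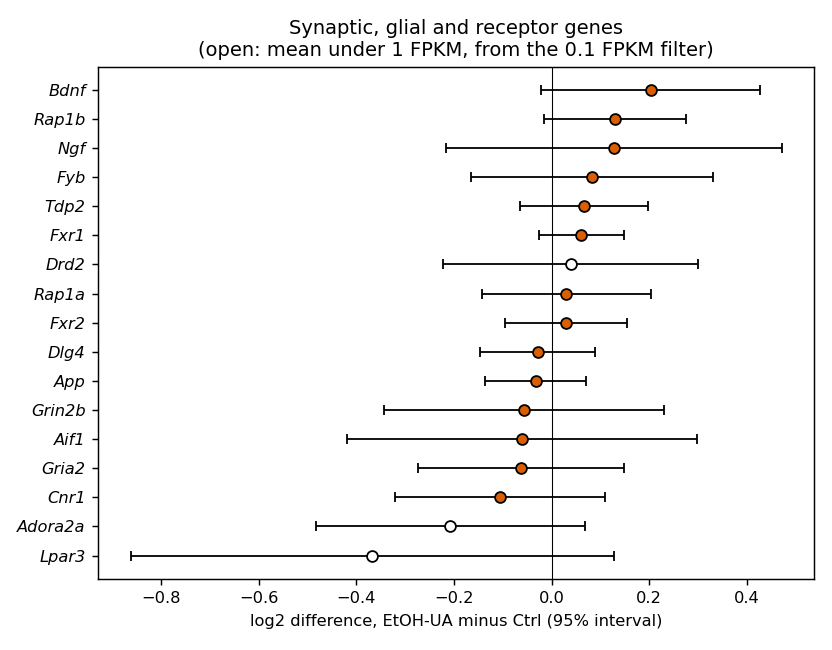
Log2 difference between EtOH-UA and Ctrl mice (horizontal axis) with its 95% interval for synaptic, glial and receptor genes (vertical axis), among them those that the study followed by other assays. Every interval crossed 0, from Lpar3 at -0.37 to Bdnf at 0.20, and open symbols mark the 3 genes with a mean below 1 FPKM.

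Further groups of genes were described by lists. Each list was also taken without the 2 EtOH-UA mice of highest summed FPKM, which turned the direction of several. Over 28 lists of pathways and functions, with 645 genes tested, 0 passed the adjusted limma threshold. An unadjusted limma p under 0.05 was found for 19 (2.95%, against 2.05% of all genes), of which 10 were higher and 9 lower. Both shares were below the 1 in 20 that chance gives where no gene differs. In the endocannabinoid list 11 of 13 tested members were higher (51.7% of all genes were) with a median of 0.04, and without the 2 mice 7 of 13 were higher (median 0.03). Abhd6, a hydrolase that degrades the endocannabinoid 2-AG, was its 1 member under 0.05, at 24.9 to 29.03 FPKM in EtOH-UA mice (median 25.74) and at 22.71 to 26.71 FPKM in Ctrl mice (median 24.24). All 7 EtOH-UA mice were above the Ctrl median, and 2 were above every Ctrl mouse. The difference was 1.09-fold (exact permutation p = 0.00909). Naaa, which hydrolyses fatty acid ethanolamides, differed by 0.09 (interval -0.03 to 0.21).

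In the synaptic lists most members were lower over all 16 mice. Of 17 ionotropic glutamate receptor genes 3 were higher (median -0.06), of 41 genes of the postsynaptic density and presynaptic release 7 were higher (median -0.07), and of 12 GABA-A receptor subunits 5 were higher (median -0.01). None of these genes had an unadjusted limma p under 0.05, where 2.05% of all genes did. The NMDA receptor subunit Grin1 was at 85.66 to 117.85 FPKM in EtOH-UA mice (median 108.59) and at 107.15 to 119.06 FPKM in Ctrl mice (median 113.69). Its lowest value belonged to the EtOH-UA mouse with the highest summed FPKM. Without the 2 mice of highest summed FPKM the direction turned for the receptors, as 10 of 17 glutamate receptor genes (median 0.02) and 8 of 12 GABA-A subunits (median 0.10) were higher. In the list of the postsynaptic density and release 18 of 41 were then higher (median -0.01).

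For alcohol itself, 8 of 12 tested genes of ethanol, acetaldehyde and acetate metabolism were higher (median 0.04) and 0 had an unadjusted limma p under 0.05. Without the 2 mice of highest summed FPKM the median turned to -0.01, with 5 of 12 higher. Aldh2, the mitochondrial enzyme that clears acetaldehyde, was at 29.21 to 40.04 FPKM in EtOH-UA mice (median 31.29) and at 25.55 to 32.55 FPKM in Ctrl mice (median 30.49). A single EtOH-UA mouse was above the Ctrl range. Acly, which makes acetyl-CoA from citrate, differed by -0.06 (interval -0.15 to 0.03).

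The direction of the mitophagy list depended on the 2 mice of highest summed FPKM. Among 32 mitophagy genes 19 were higher (median 0.01) over all mice and 7 were higher (median -0.06) without the 2. Ambra1, an autophagy regulator, differed by -0.10 (interval -0.19 to 0.00). Of 20 regulators of mitochondrial biogenesis 10 were higher (median 0.00), and 8 were higher without the 2 mice (median -0.01). Among them the mitochondrial helicase gene Twnk differed by 0.10 (interval -0.01 to 0.20) and the coactivator gene Ppargc1a by -0.18 (interval -0.39 to 0.04).

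Of 7 tested genes of the aryl hydrocarbon receptor pathway 5 were higher (median 0.04) and 0 were under 0.05, and without the 2 mice 4 of 7 were higher (median 0.12). Ahr itself differed by -0.13 (interval -0.31 to 0.06) and its target Tiparp by 0.09 (interval -0.04 to 0.22). In the NRF2 antioxidant list 24 of 31 were higher with a median of 0.02, and the direction turned without the 2 mice, when 12 of 31 were higher (median -0.02). Hmox1, which breaks down heme, was its 1 member under 0.05 (2.05% of all genes were). It was at 2.32 to 3.28 FPKM in EtOH-UA mice (median 2.85) and at 1.99 to 2.83 FPKM in Ctrl mice (median 2.50). In 4 EtOH-UA mice it was above every Ctrl mouse, and the difference was 1.14-fold (exact permutation p = 0.0448). Txnrd1, thioredoxin reductase, differed by 0.10 (interval -0.01 to 0.20). Cyba, the membrane subunit of NADPH oxidase, was at 1.25-fold (exact permutation p = 0.009) and lay above the Ctrl median in all 7 EtOH-UA mice.

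In the stress and inflammatory lists most members were higher over all mice, and for all of these but the acute phase list the direction turned without the 2 mice of highest summed FPKM. Of 10 tested acute phase and metallothionein genes 9 were higher (median 0.13), and 8 of 10 were so without the 2 mice (median 0.10). Its 2 members under 0.05 (2.05% of all genes were) were Cp, the copper carrier ceruloplasmin, and A2m, a protease inhibitor, at 1.24-fold and 1.76-fold. A2m was at 0.56 to 2.51 FPKM in EtOH-UA mice (median 1.44) and at 0.32 to 1.89 FPKM in Ctrl mice (median 0.97), with 3 EtOH-UA mice above the Ctrl range. The acute phase list is set beside the choroid plexus markers, mouse by mouse, further on. Of 33 interferon and MHC class I genes 18 were higher (median 0.02), against 14 without the 2 mice (median -0.02), and Ifit3, an interferon-induced gene, differed by -0.29 on the log2 scale (exact permutation p = 0.0545). Among 29 genes of endoplasmic reticulum stress 19 were higher (median 0.04), against 10 without the 2 mice (median -0.03). The leucine sensor Sesn2 was the 1 member under 0.05 (2.05% of all genes were), with a difference of -0.20. Among 17 heat shock and cold-inducible genes 11 were higher (median 0.01), against 4 without the 2 mice (median -0.08). The co-chaperone Bag3 and the chaperone Hspa1b were under 0.05 (2.05% of all genes were), with differences of 0.16 and -0.24.

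In the circadian list 7 of 20 genes were higher (median -0.02) and 3 were under 0.05, where 2.05% of all genes were. Without the 2 mice of highest summed FPKM the direction turned, with 14 of 20 higher (median 0.03). The clock output genes Dbp and Ciart differed by -0.18 each, and Nfil3, a repressor that opposes Dbp, differed by 0.19, with exact permutation p = 0.0234, 0.0307 and 0.0373. Dbp was at 26.87 to 35.58 FPKM in EtOH-UA mice (median 28.41) and at 28.84 to 37.37 FPKM in Ctrl mice (median 33.35). In 4 EtOH-UA mice Dbp was below every Ctrl mouse.

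In the list of cholesterol synthesis and turnover 22 of 32 genes were lower (median -0.05), and 7 were higher without the 2 mice (median -0.09). Nsdhl, an enzyme of the late steps of synthesis, was at 7.87 to 10.32 FPKM in EtOH-UA mice (median 8.37) and at 8.53 to 10.25 FPKM in Ctrl mice (median 9.34). In 4 EtOH-UA mice it was below every Ctrl mouse and in 1 it was above them, and the difference was -0.14 on the log2 scale (exact permutation p = 0.042). Dhcr7, which completes cholesterol, differed by -0.15 (interval -0.30 to 0.00). Among 24 genes of glucocorticoid receptors and targets 13 were higher (median 0.006), against 11 without the 2 mice (median -0.005). Its 2 members under 0.05 (2.05% of all genes were) were Sult1a1 and Cdkn1a, a cell cycle inhibitor induced by glucocorticoids. Cdkn1a was at 1.25-fold (exact permutation p = 0.0199). Among 14 adult neurogenesis genes 8 were higher (median 0.03), against 7 without the 2 mice (median 0.02). The 2 members under 0.05 went in opposite directions. Cd24a, a surface protein of young neurons, was at 1.38-fold (exact permutation p = 0.0184), and Dpysl3 differed by -0.17. The opioid peptide genes Pdyn and Penk differed by 0.33 and -0.30 with intervals that crossed 0.

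**Figure D4:**
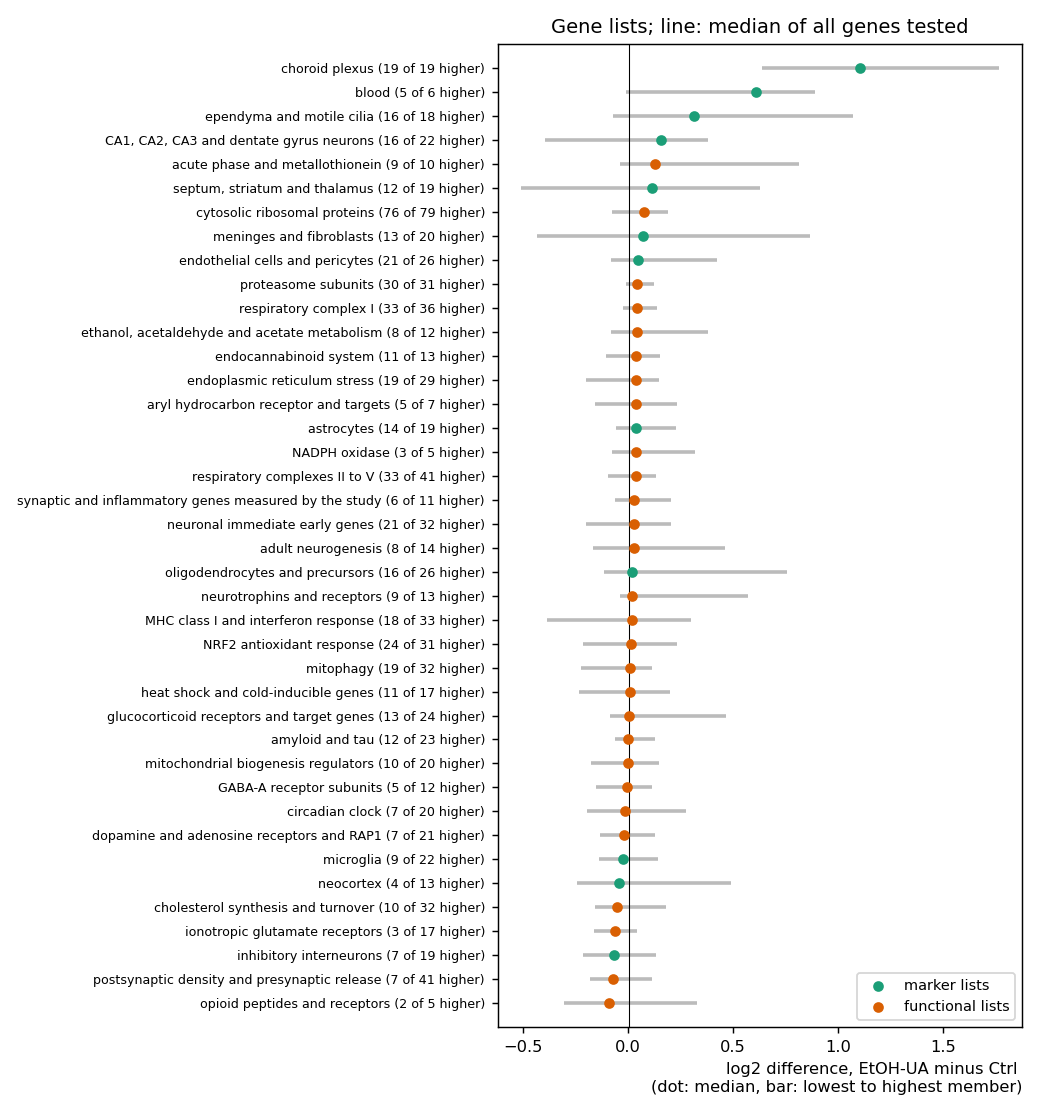
Median log2 difference between EtOH-UA and Ctrl mice (dots, horizontal axis) of the tested members of 40 lists (vertical axis), with a bar from the lowest to the highest member, marker lists in green and other lists in orange. The medians lay within 0.2 of 0 except for the choroid plexus (1.10), blood (0.61) and ependyma (0.31) markers.

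The 12 lists of cell type and region markers held 220 tested genes, of which 0 passed the adjusted limma threshold. An unadjusted limma p under 0.05 was found for 15 (6.82%, against 2.05% of all genes), where chance alone gives about 1 in 20. In bulk tissue, fewer cells of a type and less RNA per cell cannot be told apart. Hemoglobin genes accounted for 4 of the 15. Hbb-bt, a beta-globin, was at 7.93 to 18.35 FPKM in EtOH-UA mice (median 12.23) and at 2.05 to 10.39 FPKM in Ctrl mice (median 7.62). In 5 EtOH-UA mice it was above every Ctrl mouse, and the difference was 1.80-fold (exact permutation p = 0.00752). Hba-a2, Hbb-bs and Hba-a1 were at 1.86-fold, 1.58-fold and 1.47-fold, with exact permutation p = 0.0281, 0.0257 and 0.0428. The EtOH-UA mouse with the highest summed FPKM had the highest value of all 4 genes. Of 6 tested blood markers 5 were higher (median 0.61). Without the 2 EtOH-UA mice of highest summed FPKM 4 were higher (median 0.38). The hemoglobin genes have near-identical copies, and their summed level was 83.84 to 274.51 FPKM in EtOH-UA mice and 39.90 to 136.72 FPKM in Ctrl mice, with 5 EtOH-UA mice above the Ctrl range. Alas2, which makes heme in red cells and had a mean below 1 FPKM, was at 0.50 to 1.48 FPKM against 0.39 to 0.72 FPKM, and it was above the Ctrl range in 5 EtOH-UA mice. The part of these blood markers in the other differences was not tested.

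Of 22 hippocampal subfield markers 16 were higher (median 0.16), and 16 were so without the 2 mice of highest summed FPKM (median 0.14). Wfs1, a marker of CA1 neurons, was at 29.85 to 38.57 FPKM in EtOH-UA mice (median 33.23) and at 20.07 to 34.73 FPKM in Ctrl mice (median 29.34), and Trpc6, a channel of the dentate gyrus, was at 1.22-fold. All 7 EtOH-UA mice were above the Ctrl median for Wfs1 (exact permutation p = 0.0194). The interneuron peptide gene Npy differed by -0.21 on the log2 scale (exact permutation p = 0.0403), within a list in which 7 of 19 markers were higher (median -0.06).

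Gfap, the intermediate filament of astrocytes, was at 100.62 to 142.26 FPKM in EtOH-UA mice (median 124.94) and at 85.63 to 119.18 FPKM in Ctrl mice (median 100.7). In 4 EtOH-UA mice it was above every Ctrl mouse, and the difference was 1.17-fold (exact permutation p = 0.028), while the 19 astrocyte markers had a median of 0.04, with 14 higher and, without the 2 mice, 10 higher (median 0.02). Of 22 microglial markers 9 were higher (median -0.03) and 0 had an unadjusted p under 0.05, and without the 2 mice 3 were higher (median -0.06). Acta2, the actin of smooth muscle, was at 1.34-fold (exact permutation p = 0.014) among 26 endothelial and mural markers with a median of 0.05, which was -0.01 without the 2 mice. Of 20 markers of the meninges and fibroblasts 13 were higher (median 0.07), from -0.43 to 0.87. The collagen gene Col6a1 was the lowest of them (exact permutation p = 0.0566) and the 1 member under 0.05 by limma, where 2.05% of all genes were. Ppp1r1b (DARPP-32) and Tcf7l2, on the list of septum, striatum and thalamus, were at 1.19-fold and 1.21-fold within a list median of 0.12. Of the 26 tested oligodendrocyte markers 16 were higher (median 0.02), and without the 2 mice 22 were higher (median 0.10). Of the 13 tested neocortical markers 4 were higher (median -0.04), and without the 2 mice 6 were higher (median -0.02).

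Markers of the ventricle and its choroid plexus varied most from mouse to mouse. All 19 choroid plexus markers were higher in the mean of EtOH-UA mice, with a median of 1.10, yet 0 had an unadjusted limma p under 0.05. Ttr, the thyroxine carrier that marks this epithelium, was at 11.34 to 7704.77 FPKM in EtOH-UA mice (median 1810.57) and at 3.88 to 2913.56 FPKM in Ctrl mice (median 56.1). Both groups held mice at 70.23 FPKM or less and mice at 980.99 FPKM or more, and the 95% interval of the difference ran from -1.73 to 5.26. The score of the list, the mean deviation of its members from their mean over the 16 mice, ran from -2.36 to 3.21 in EtOH-UA mice and from -2.44 to 2.14 in Ctrl mice. Of 18 ependymal markers 16 were higher (median 0.31), and 17 were so without the 2 mice of highest summed FPKM (median 0.36). Under 0.05 were 3 of them, where 2.05% of all genes were. These were Rarres2 (chemerin) at 1.25-fold, Pltp, a phospholipid transfer protein also listed for endothelium, at 1.19-fold, and Tekt1, a protein of cilia, at 1.52-fold. Whether choroid plexus or ependyma was included to a different extent in the dissected samples was not tested. With the choroid plexus score as a covariate 251 genes had an unadjusted limma p under 0.05 and 0 passed the adjusted threshold.

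The lists of the translation and respiration machinery had members on 1 side in small amounts. Of 79 cytosolic ribosomal protein genes 76 were higher (median 0.08), of 36 complex I genes 33 were higher (median 0.04), of 41 genes of complexes II to V 33 were higher (median 0.04), and of 31 proteasome genes 30 were higher (median 0.04). None of these genes had an unadjusted limma p under 0.05. The ribosomal score was 0.68 and 0.41 in the 2 EtOH-UA mice of highest summed FPKM, -0.31 to -0.10 in the other five, and -0.28 to 0.25 in Ctrl mice. The direction turned without these 2 mice, when 1 of 79, 0 of 36, 0 of 41 and 1 of 31 genes were higher, with medians of -0.13, -0.17, -0.15 and -0.10. Rps6, a ribosomal protein gene, differed by 0.19 (interval -0.05 to 0.43), Ndufab1, of complex I, by 0.12 (interval -0.10 to 0.34), and Psmc6, of the proteasome, by 0.10 (interval -0.07 to 0.27).

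Transcript length moved with the same mice. The median deviation of genes with transcripts under 1000 bases was above that of genes of at least 3000 bases by 0.36 and 0.22 in those 2 mice, and the other mice lay between -0.12 and 0.13. Over the 12587 genes with a length, the median difference between the groups was 0.02 for transcripts under 1000 bases and -0.02 for those of at least 3000 bases, and it was -0.03 and 0.03 without the 2 mice. The part of transcript length in the differences of single genes was not tested.

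**Figure D5:**
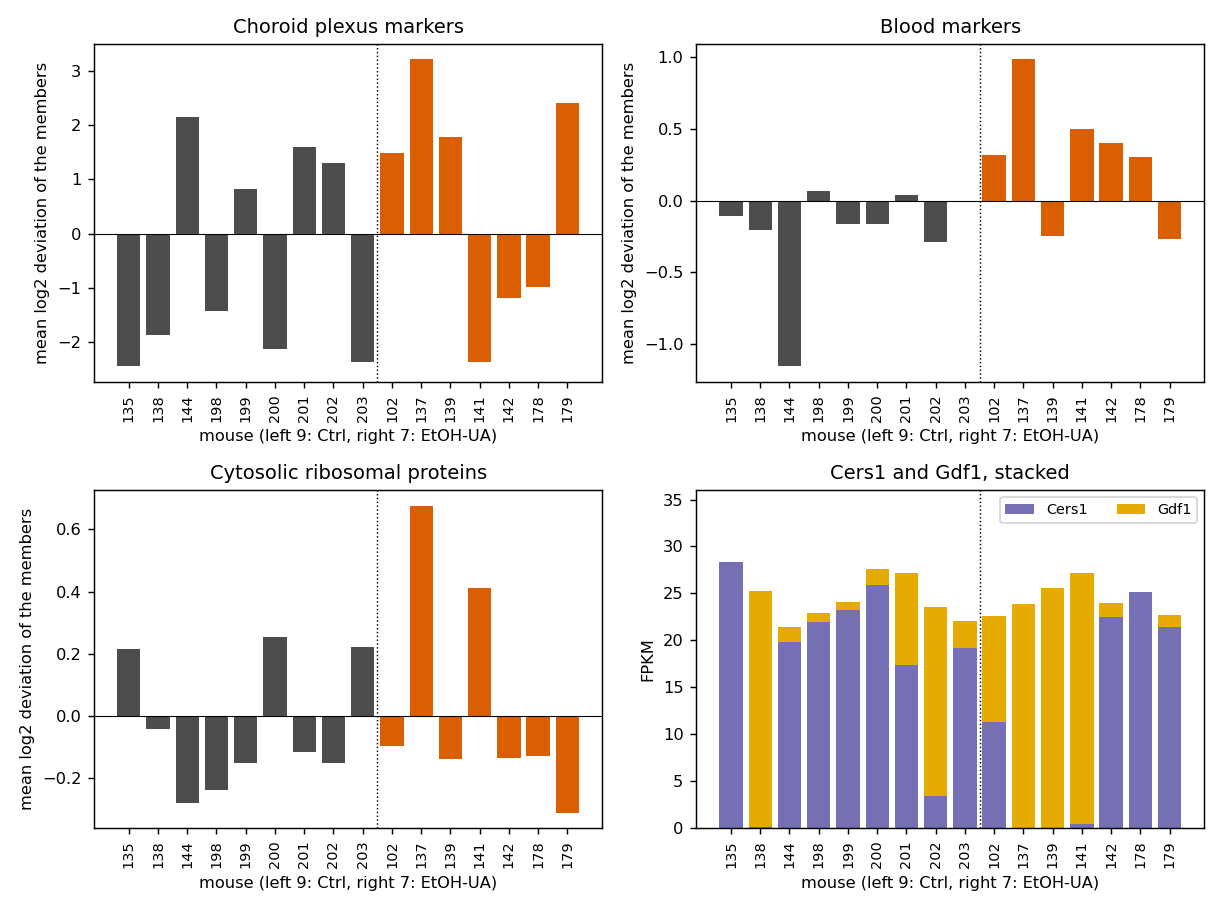
Mean log2 deviation of the choroid plexus, blood and ribosomal protein lists, and FPKM of Cers1 and Gdf1 as stacked bars (vertical axes), in each mouse (horizontal axis, by its number in the table, Ctrl in grey on the left and EtOH-UA in orange on the right). Choroid plexus scores were above and below 0 in both groups, 2 EtOH-UA mice had the highest ribosomal scores (0.68 and 0.41), and Cers1 and Gdf1 summed to between 21.47 and 28.37 FPKM in every mouse.

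An absolute difference of at least 1 on the log2 scale was found for 23 genes (0.179% of those tested), 20 higher and 3 lower in EtOH-UA mice. Of these, 12 were choroid plexus markers, and 17 had an absolute difference under 0.5 once the choroid plexus score was a covariate. That score is the mean of the choroid plexus list, so for the 12 markers in it the smaller difference follows from how it was made. The other 6, at 0.5 or more with the covariate, were Cers1, Zfp973, Ccl27b, Gm2506, H3c15 and Mia. Cers1, Zfp973, Gm2506 and H3c15 were singled out after their values were seen, and Mia by this difference alone. Ccl27b was already a leading gene by its p. Mia, an ependymal marker here, differed by 0.63 with the covariate.

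Cers1, a ceramide synthase of neurons, had the widest difference of all genes tested, at -2.08 on the log2 scale (interval -4.88 to 0.73, exact permutation p = 0.189). It was listed at 0 in 2 EtOH-UA mice and was at 0.45, 11.34, 21.46, 22.46 and 25.12 FPKM in the others, and in Ctrl mice it was at 0.14, 3.44, 17.38, 19.20, 19.83, 21.93, 23.21, 25.88 and 28.37 FPKM. Both groups thus held mice near 0 and mice at 21.46 FPKM or more. Cers1 and Gdf1, a growth factor of the TGF-beta family, are annotated at the same place on chromosome 8 (70315775-70331588 and 70315775-70331592, GRCm38), because a single transcript can carry both coding sequences. Gdf1 was high where Cers1 was low, at 23.86 and 25.58 FPKM in the 2 EtOH-UA mice with Cers1 at 0 and at 0.00 FPKM in the Ctrl mouse with Cers1 at 28.37 FPKM. The sum of both was 22.59 to 27.21 FPKM in EtOH-UA mice and 21.47 to 28.37 FPKM in Ctrl mice. That sum differed by -0.01 on the log2 scale (exact permutation p = 0.837), so the difference of either gene is uncertain where reads of overlapping genes are split. The 250 bases before the start that RefSeq gives to both genes (chr8:70315525-70315774, plus strand, GRCm38) are shown because both names share this start, with CG dinucleotides in capitals.
Cers1 and Gdf1 upstream: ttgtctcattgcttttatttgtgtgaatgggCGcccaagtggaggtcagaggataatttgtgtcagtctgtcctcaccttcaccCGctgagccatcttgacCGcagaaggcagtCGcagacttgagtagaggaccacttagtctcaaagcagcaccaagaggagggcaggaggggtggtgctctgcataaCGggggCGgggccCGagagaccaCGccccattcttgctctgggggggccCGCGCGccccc
The stretch holds 11 CG dinucleotides, a number reached by 35.6% of the 32851 RefSeq promoters of the same length.

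Ccl27b, on chromosome 4 (42650563-42656008), was at 0.34 to 3.89 FPKM in EtOH-UA mice (median 2.37) and at 2.45 to 7.39 FPKM in Ctrl mice (median 5.48). All 7 EtOH-UA mice were below the Ctrl median and 4 were below every Ctrl mouse, with an exact permutation p of 0.00367. Its transcript matched one of Gm13306 over 418 bases without a mismatch, and one of Ccl27a over 425 bases with 3 mismatches (99.3% identity). The sum of Ccl27b and Gm13306 was 10.51 to 17.41 FPKM in EtOH-UA mice and 11.23 to 21.40 FPKM in Ctrl mice, with a difference of -0.24 on the log2 scale (exact permutation p = 0.0854). The level of either copy is uncertain for this reason. Gm2506, also listed on chromosome 4, was at 0.36 to 7.01 FPKM in EtOH-UA mice (median 3.88) and was listed at 0 to 3.90 FPKM in Ctrl mice (median 1.96). H3c15, a histone gene that also has close copies, was listed at 0 in 3 EtOH-UA and 6 Ctrl mice and reached 4.02 and 3.46 FPKM, and Zfp973, a zinc finger gene, was listed at 0 in 2 EtOH-UA mice and 1 Ctrl mouse and reached 3.33 and 6.42 FPKM.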

How the data were processed

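Hippocampal RNA of 16 mice (7 EtOH-UA, 9 Ctrl) was compared. The authors deposited one table of FPKM per gene, and their methods name Bowtie2 and RSEM on mm10 (GRCm38). The submitters' processing notes list Bowtie2 2.2.5, RSEM 1.2.8, HISAT2 2.1.0, StringTie and DESeq. The methods text gives other versions of Bowtie2 and RSEM, and which tools made the table could not be settled. The methods name poly(A)+ RNA and the annotations total RNA. Because FPKM are not counts, the authors' count test was not applied. Columns were assigned to groups by name, and the 7 columns of the EtOH group were not used. Values were taken as log2(FPKM + 0.1), and limma 3.58.1 (R 4.3.3) was applied to the 12869 genes whose mean reached 1 FPKM (eBayes with an intensity trend, no covariate), with Benjamini-Hochberg adjustment over all genes and a threshold of 0.05. For named genes the difference of means was set against all 11440 splits of the mice (exact permutation test, two-sided). P-values measure the spread between mice as labelled. For genes chosen by their p, by their lack of overlap or after their values were seen, the permutation p is not a separate test.

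The rule for named genes took the 12 smallest p-values in each direction, 2 members of smallest p and the most abundant member of each of 40 lists, the genes the study followed, and genes whose groups did not overlap, 145 in all, of which some are not reported here. A further 14 genes, among them Cers1, Gdf1, Zfp973, Gm2506, H3c15, Folr1, Alas2, Hba-a1, Hbb-bs, Nfil3, Tekt1 and Dhcr7, were named after their values were seen. The comparison and the lists were chosen with earlier results of these data known. Lists were described by counts and medians. Coordinates and upstream sequence come from RefSeq (GRCm38), lengths and transcripts from GENCODE release 21 of the mouse, and transcripts were compared with blastn 2.17.0. The depth estimate takes steps as whole within 0.006 FPKM. The pipeline was tested on simulated data. Alternatives were other pseudocounts, filters, scalings and limma options, all 23 mice in one fit, and each mouse left out in turn.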

Additional observations from a re-analysis of the deposited data

Results flagged for a closer look

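In 274 groups of values, 22 had a highest or lowest mouse set apart from the others by more than Dixon's critical value, where chance gives about 1 in 20. The gap is given as a share of the group's whole range on the log2 scale. In 8 of the 22 the mouse was the EtOH-UA mouse with the highest summed FPKM. It was highest for Aass (0.584), Aldh2 (0.762), Ppp1r1b (0.599) and the NRF2 antioxidant list (0.576). It was lowest for Ppargc1a (0.57), Grin1 (0.618) and the lists of ionotropic glutamate receptors (0.631) and of postsynaptic density and presynaptic release (0.622).

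Other EtOH-UA mice stood apart for Lenep (0.736, highest, 7.57 FPKM against 6.69 in the next mouse), Penk (0.574, highest, 32.81 against 18.73 FPKM), Gm2506 (0.611, lowest, 0.36 against 2.35 FPKM) and the neurotrophin list (0.653, lowest).

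In Ctrl mice the lowest value stood apart for Serinc2 (0.4933), Hbb-bt (0.601), Hbb-bs (0.639), Ifit3 (0.629), Pdyn (0.631), Cers1 (0.563), Zfp973 (0.65), Gm2506 (0.57) and the blood marker list (0.707), and the highest stood apart for App (0.502). The Ctrl mouse with low Hbb-bt and Hbb-bs, at 2.05 and 16.07 FPKM, was also the one with the low blood marker score.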

How the results depend on the processing

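No paired analysis was possible because the columns carry mouse numbers and not the replicate numbers of the labels. Under all 31 alternatives 0 genes passed the adjusted limma threshold. Leaving out the 2 EtOH-UA mice of highest summed FPKM, keeping mice with neighbouring numbers, a filter at 10 FPKM and both covariates were chosen after seeing the data. Leaving out single mice gave 94 to 269 higher and 65 to 238 lower genes at an unadjusted p under 0.05, 11 to 43 genes with an absolute difference of at least 1, and 1 to 4 genes whose groups did not overlap. Higher genes under 0.05 numbered 293 with no filter, 432 with array weights, 388 without the 2 mice, 45 at 10 FPKM or more and 227 with the ribosomal score as a covariate. Lower genes numbered 190 with a filter at 0.1 FPKM, 270 with no filter, 549 with array weights, 462 without the 2 mice, 29 among mice with neighbouring numbers, 49 at 10 FPKM or more and 282 with the ribosomal covariate. Genes with an absolute difference of at least 1 numbered 3 and 35 with pseudocounts of 1 and 0.01, 47 with a filter at 0.1 FPKM, 49 with no filter, 14 with quantile normalization, 37 among mice with neighbouring numbers, 3 at 10 FPKM or more and 11 with the choroid plexus covariate. Genes without overlap numbered 2 with a filter at 0.1 FPKM, 2 with no filter, 0 with upper-quartile scaling, 18 without the 2 mice and 0 at 10 FPKM or more. Among neighbouring numbers (4 EtOH-UA and 3 Ctrl mice) they numbered 266 of 12883 genes. Groups this small often fail to overlap by chance, and the 4 EtOH-UA mice included the 2 of highest summed FPKM. The cause of these changes was not tested.

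Some list medians moved by more than 1 SD between mice. Mitochondrial biogenesis was at 0.0374 among neighbouring numbers, the aryl hydrocarbon receptor list at 0.12 without the 2 mice, opioid genes at 0.0823 without the 2 mice, at -0.23 at 10 FPKM or more and at -0.159 to 0.0387 with 1 mouse left out, and blood markers at 0.0354 with no filter and at 1.17 among neighbouring numbers. The direction turned for Ttr (-0.26) and Folr1 (-0.13) with the choroid plexus covariate, as it did for Dlg4 (0.0031). With array weights Gdf1 (-0.25), Fxr2 (-0.050), Grin2b (0.11) and Gria2 (0.0534) turned. Without the 2 mice Gdf1 (-0.15), Ndufab1 (-0.0119), Fxr2 (-0.0515), Grin2b (0.15), Gria2 (0.0835) and Rap1a (-0.0373) turned, and Grin2b was at 0.0128 with the ribosomal covariate. With 1 mouse left out the differences ran from -0.0056 to 0.0517 for Fxr2, -0.0537 to 0.0132 for Dlg4, -0.104 to 0.0716 for Grin2b, -0.103 to 0.0138 for Gria2, -0.189 to 0.0179 for Aif1 and -0.0184 to 0.0667 for Rap1a. FPKM leave the number of fragments behind each value unknown beyond the estimate given above, and 16 mice limit the precision to the intervals printed.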
